A study of Mus musculus with 3 samples.

Results

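The genes described here are 6 genes of the mouse Reg family, Reg1, Reg2, Reg3a, Reg3b (named Pap on the array), Reg3g and Reg4, together with Dmbt1. They are 7 of the 27677 genes named on the array design, and each was measured by 1 probe. The genes were selected on measured ratios of these same tissue pairs, so their ratios are given as a description and no test rests on them. The tumours came from transgenic mice labelled AID Tg. There were 3 tissue pairs, 1 per organ, and each pair was hybridised as Cy3-labelled and Cy5-labelled RNA to 1 Agilent array. A liver tumour was paired with nontumour liver of the AID Tg mouse that bore it, and a stomach tumour was paired in the same way with nontumour stomach. A lung tumour of an AID Tg mouse was paired with normal lung of a wild-type (Wt) mouse. In liver and stomach both tissues of the pair therefore carried the transgene, whereas in lung the genotype and the tumour cannot be told apart. The promoter of the transgene, the strain, the age and any pooling of animals were not stated in the sources at hand.

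The sources do not settle which tissue each dye stood for. The sample labels give Cy3 to the tumour and Cy5 to the nontumour or normal tissue, but the authors' deposited table places Cy5-bright spots beneath headings that say the tumour had more. Every ratio below names its channels, as log2(Cy5/Cy3), and a gene at least 2-fold brighter in one channel is called Cy5-high or Cy3-high. Cy5 was likely the tumour by the authors' headings and by the design text that points to them. By the dye labels it was the other tissue, and every sign would turn. With 1 array per organ and no exchanged dyes there was no replicate check, no p-value is given, and precision is limited by how few arrays there were. Each error is that of the scanner software for 1 spot unless it is named as a standard deviation (SD) between probes.

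Reg proteins are small secreted C-type lectins, first known from regenerating pancreatic islets and made mainly by the exocrine pancreas and the gut. Reg3b and Reg3g are antimicrobial lectins of the intestinal epithelium that are induced through interleukin 22 and Stat3. Dmbt1 is a large secreted glycoprotein built of scavenger receptor cysteine-rich domains, and it binds bacteria at mucosal surfaces.

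The upstream sequences of 5 Reg genes are shown first, because the 4 Reg genes that appear in the authors' lists for stomach or lung, namely Reg1, Reg2, Reg3b and Reg3g, can be read there beside Reg3a, a neighbour that appears in none of them. Each line holds the 250 bases before the gene's start, 5′ to 3′ on the gene's strand, from RefSeq on build GRCm38.p6. Capitals mark TATAAA, the usual letters of a TATA box. They also mark CACCTG, an E-box of the kind bound by the pancreatic acinar factor Ptf1a.
Reg1, chr6:78425733-78425982, plus strand: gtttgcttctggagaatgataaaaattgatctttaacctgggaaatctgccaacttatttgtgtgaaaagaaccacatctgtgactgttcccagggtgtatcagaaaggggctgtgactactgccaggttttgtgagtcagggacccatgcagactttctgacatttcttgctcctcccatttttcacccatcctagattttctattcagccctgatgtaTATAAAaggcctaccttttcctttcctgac
Reg2, chr6:78404905-78405154, plus strand: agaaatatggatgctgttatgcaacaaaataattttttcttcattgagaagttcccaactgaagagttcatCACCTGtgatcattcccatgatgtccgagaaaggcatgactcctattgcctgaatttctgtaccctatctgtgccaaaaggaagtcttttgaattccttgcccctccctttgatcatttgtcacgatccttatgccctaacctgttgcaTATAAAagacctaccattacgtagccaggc
Reg3b, chr6:78370635-78370884, plus strand: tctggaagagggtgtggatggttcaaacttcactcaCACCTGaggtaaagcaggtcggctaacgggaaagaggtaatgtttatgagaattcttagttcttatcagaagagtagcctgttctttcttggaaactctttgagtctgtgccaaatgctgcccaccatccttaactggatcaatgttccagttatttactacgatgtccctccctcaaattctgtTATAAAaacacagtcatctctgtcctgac
Reg3g, chr6:78468875-78469124, minus strand: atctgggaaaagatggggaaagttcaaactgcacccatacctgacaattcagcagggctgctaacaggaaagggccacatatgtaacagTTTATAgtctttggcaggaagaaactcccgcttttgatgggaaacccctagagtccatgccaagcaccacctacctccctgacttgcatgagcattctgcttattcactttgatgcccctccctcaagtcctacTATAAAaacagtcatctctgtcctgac
Reg3a, chr6:78380459-78380708, plus strand: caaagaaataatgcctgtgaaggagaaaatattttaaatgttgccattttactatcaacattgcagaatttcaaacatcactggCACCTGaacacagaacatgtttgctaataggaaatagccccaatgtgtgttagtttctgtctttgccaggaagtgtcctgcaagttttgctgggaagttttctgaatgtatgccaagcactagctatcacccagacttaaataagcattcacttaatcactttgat

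TATAAA was found 30 bases before the start in Reg1 and Reg2, 29 bases before it in Reg3b and 27 bases before it in Reg3g. Reg3g held a further copy on the opposite strand 161 bases before its start, printed there as TTTATA. These letters occurred on either strand in 12.4% of the 32817 windows of 250 bases in the promoter table, and in none of the Reg3a, Reg4 and Reg3d windows, the other Reg genes of the 7 matched. CACCTG was found on either strand in 17.2% of all windows and in Reg2, Reg3a, Reg3b, Reg4 and Reg3d. Searches were also made for TTCNNNGAA, the spacing bound by Stat factors, which was in Reg3b and Reg3d and in 7.01% of all windows, and for TTTCCC, which was in Reg1, Reg3b, Reg3g and Reg3d and in 21.9% of all windows. The most alike pair of windows was Reg3b and Reg3g, with the same base at 69.2% of the 250 positions in a global alignment, followed by Reg1 and Reg2 at 62.4%. The least alike pair was Reg2 and Reg3g at 51.6%. A match is a run of letters and not a bound site. Any link between these matches and the ratios was not tested. Low signal on the arrays limited the ratios of Reg3a, Reg4 and Reg3d, so these genes do not serve as unchanged ones.

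In the RefSeq annotation 5 of the Reg genes lie next to each other on chromosome 6 with Reg3d, in the order Reg3b, Reg3d, Reg3a, Reg2, Reg1 and Reg3g. Reg4 lies on chromosome 3 and Dmbt1 on chromosome 7. The probes lie, per the file headers, at chr6:78446441-78446500 for Reg1, chr6:78391237-78391296 for Reg3b, chr6:78484334-78484393 for Reg3g, chr6:78425873-78425932 for Reg2 and chr6:78401549-78401608 for Reg3a. The Dmbt1 probe lies at chr7:127475099-127475158. Those coordinates carry no named build, so they were not placed in exons. Probe sequences were not used here, and signal shared between related Reg transcripts was not tested.

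On the liver and stomach arrays, spots well above background made up 88.8 to 90.0% of gene spots in Cy5 and 82.3 to 84.1% in Cy3. Liver and stomach labels were checked against marker genes after brightness was scaled between the arrays: 15 of 15 hepatocyte genes were brighter on the liver array in both channels, and 16 of 17 gastric genes were brighter on the stomach array. Lung scanner values were not analysed here.

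In the stomach pair Dmbt1, Reg1 and Reg3b were Cy5-high, at 5.20-fold, 4.49-fold and 3.94-fold, and Reg3g was close to the 2-fold limit at 1.93-fold. Over the array, 0.873% of the 25322 measured genes were Cy5-high and 1.41% were Cy3-high. Of the 7 genes, 3 were Cy5-high and 0 were Cy3-high. Their median log2 ratio was 0.95, beside 0.00 over all measured genes, but the genes had been chosen partly on these ratios. All 7 passed the filter on low values, although Reg3a and Reg4 passed through Cy5 alone.

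Dmbt1 had processed signals of 59700 ± 991 in Cy5 and 11100 ± 206 in Cy3 on the stomach array, both far above the background. Its log2 ratio was 2.38, rank 8 from the top of 25322 genes, and the scanner's own ratio was 2.43 ± 0.24. A predicted gene named LOC546006, which the array describes as similar to Dmbt1, showed no such difference. That probe had signals of 2170 ± 26.1 in Cy5 and 2410 ± 44.7 in Cy3 and a log2 ratio of -0.13, within its scanner error of 0.24.

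Reg1, the family's founding member, had signals of 7720 ± 79.5 in Cy5 and 1270 ± 29.9 in Cy3 in stomach. Its log2 ratio was 2.17, rank 10 of 25322, and the scanner's ratio was 2.60 ± 0.27. Reg2, a close relative that lies beside Reg1 on the chromosome, did not show a difference of that size. It had signals of 681 ± 17.5 in Cy5 and 428 ± 22.1 in Cy3, and its log2 ratio was 0.34 beside a scanner error of 0.73.

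Reg3b had signals of 6620 ± 101 in Cy5 and 1230 ± 37.9 in Cy3 in stomach, a log2 ratio of 1.98 and rank 17, with a scanner ratio of 2.43 ± 0.27. Reg3g, the other antimicrobial lectin, had signals of 2160 ± 33.6 in Cy5 and 860 ± 36.9 in Cy3. Its log2 ratio was 0.95, rank 262, and the scanner's ratio was 1.33 ± 0.33. Both were thus brighter in Cy5 by more than the error of their spots, and the Reg3b ratio was the larger.

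Reg3a and Reg4 were dim in both channels of the stomach array. Reg3a had signals of 142 ± 11.9 in Cy5 and 45.1 ± 19.9 in Cy3, and the Cy3 signal was not well above background, so the side of its ratio is not settled: the log2 ratio was 0.21, and -0.21 after median centring. Reg4, a gut member of the family, had 126 ± 9.53 in Cy5 and 118 ± 20.1 in Cy3, where the Cy3 signal was not well above background either. Its ratio of -0.02 gave no bound. Reg3d, which is not among the 7 genes but lies within their cluster, had 94.8 ± 9.04 in Cy5 and 35.9 ± 13.9 in Cy3, the last not well above background, and a fitted ratio of 0.20 beside a scanner error of 6.38. The ratios in stomach thus spanned 2.40 log2 units among the 7 genes, with Dmbt1 at the top and Reg4 at the bottom. Fewer cells that express a gene and less of its RNA per cell cannot be told apart in such bulk tissue.

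**Figure D1:**
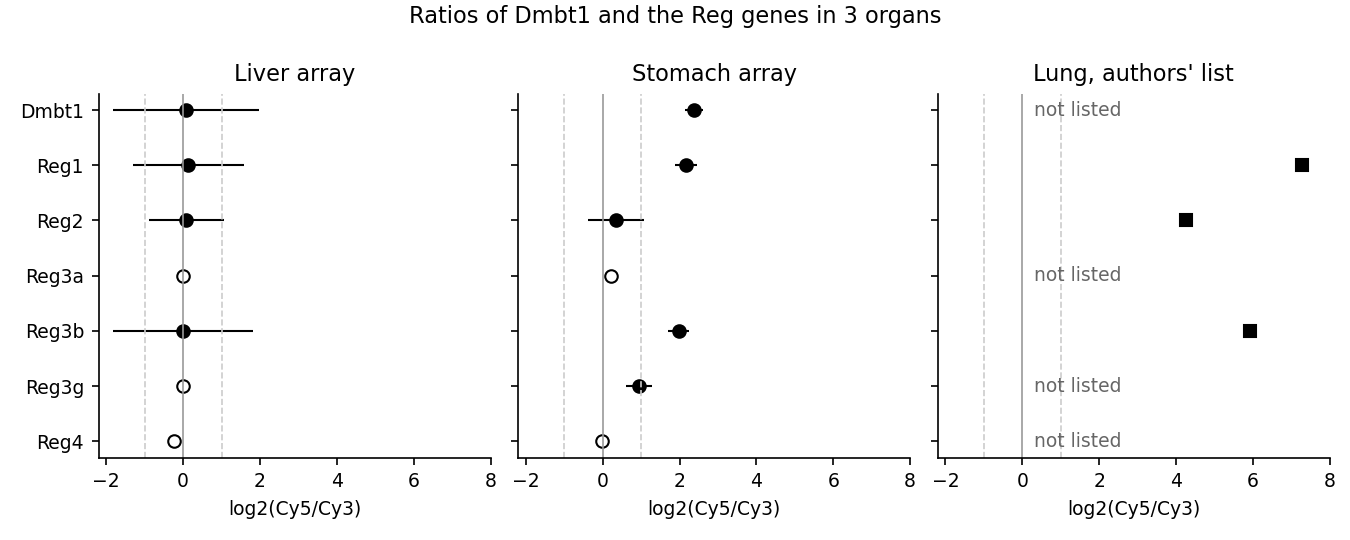
Log2(Cy5/Cy3) of Dmbt1 and the 6 Reg genes on the liver and stomach arrays and in the authors' lung list. Bars are the scanner error of 1 spot, open circles have at least 1 channel not well above background (no bar drawn), squares are the authors' listed ratios, dashed lines mark 2-fold, and there are no replicates. In stomach Dmbt1, Reg1 and Reg3b lie between 1.98 and 2.38, while the liver points lie between -0.24 and 0.14.

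**Figure D2:**
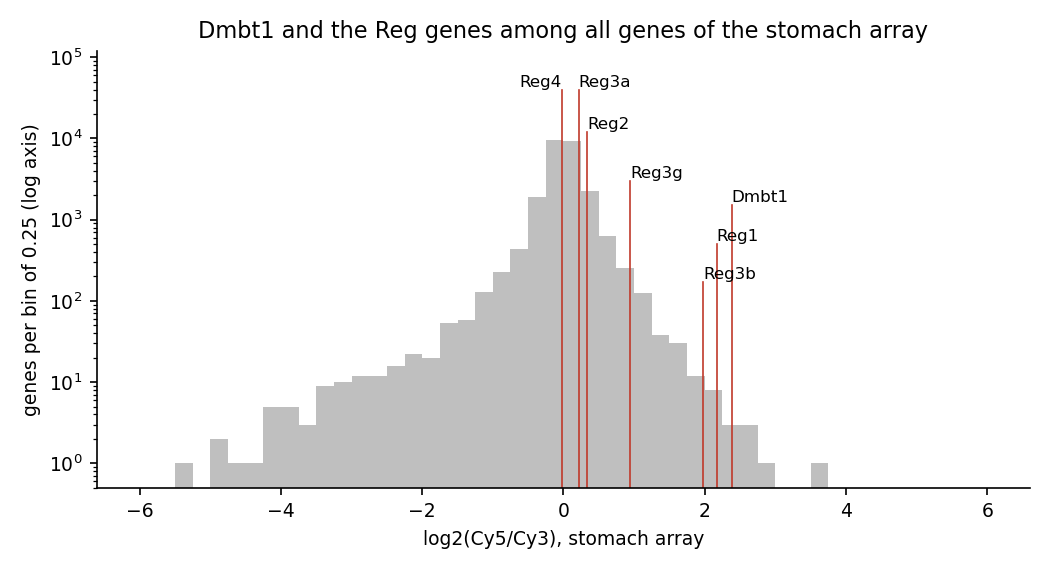
Number of genes per bin of log2(Cy5/Cy3) over the 25322 genes measured on the stomach array (log axis), with red lines at the ratios of the 7 genes. Dmbt1, Reg1 and Reg3b stand in the thin Cy5 tail, and Reg4, Reg3a and Reg2 stand within the main body near 0.

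Different processing left the order of the brightest genes partly unsettled. With the scanner's own ratios the highest of the 7 was Reg1 at 2.60, followed by Dmbt1 at 2.43 and Reg3b at 2.43. After median centring in place of loess, Dmbt1 was at 3.23, above Reg1 at 2.64. Reg3g passed the 2-fold limit with the scanner's ratios, with a smaller background offset of 10 and after median centring. Reg3a passed it with the scanner's ratio alone, at 1.65 ± 4.58, where its Cy3 signal was not well above background. Dmbt1, Reg1 and Reg3b stayed Cy5-high under all 7 alternatives. Those alternatives that changed only the filter on probes or the choice among them could not alter these values. Each of these genes had 1 probe, unsaturated and well above background in both channels.

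**Figure D3:**
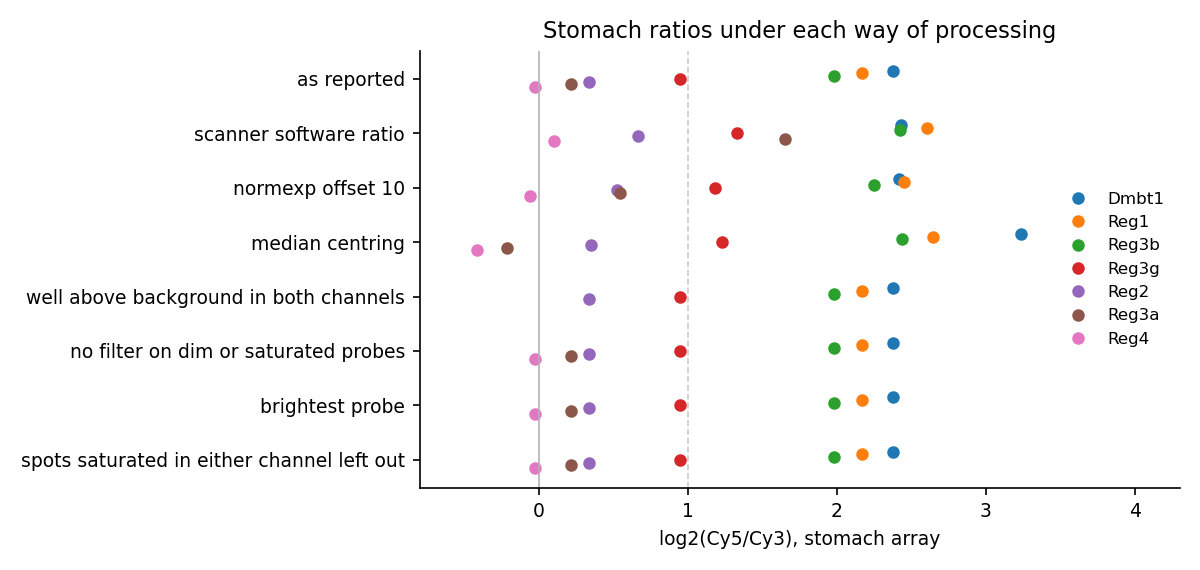
Log2(Cy5/Cy3) of each gene on the stomach array as reported and under 7 other ways of processing the same scanner file. Dmbt1, Reg1 and Reg3b lie to the right of the dashed 2-fold line in every row, from 1.98 to 3.23, whereas Reg3g crosses it and Reg3a ranges from -0.21 to 1.65. Rows that change only the filter or the choice of probe could not move Dmbt1, Reg1 or Reg3b. Reg3a and Reg4 have no point where both channels had to be well above background.

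In the liver pair none of the 5 genes that passed the filter on low values was past 2-fold. Over the array, 0.152% of 25606 measured genes were Cy5-high and 0.0703% were Cy3-high. Of these 5 genes, 0 were Cy5-high and 0 were Cy3-high, and their ratios ran from -0.01 to 0.14. Reg3a and Reg4 were above background in neither channel, so that their scanner ratios of 0.82 ± 6.58 and -1.01 ± 4.82 give no fold. For all 7, the scanner's ratio lay within its own scanner error, which was 0.97 log2 units or more.

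Reg1 had signals of 263 ± 11.7 in Cy5 and 235 ± 16.8 in Cy3 on the liver array, with a log2 ratio of 0.14. Reg2 had 396 ± 12.5 in Cy5 and 346 ± 31.9 in Cy3, and its ratio was 0.08. Dmbt1 had 200 ± 11.3 in Cy5 and 175 ± 20.8 in Cy3, at a ratio of 0.09. These 3 genes were well above background in both channels but dim. Reg3b had 182 ± 10.9 in Cy5 and 210 ± 21.7 in Cy3, giving a ratio of 0.00, and it too was above background in both. Reg3g had 127 ± 11.5 in Cy5 and 113 ± 19.5 in Cy3, the last not well above background, at a ratio of -0.01. The scanner errors of these 5 spots were wide, from 0.97 for Reg2 to 2.97 for Reg3g, and differences within them were not detectable at this brightness.

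The same probes can be compared between the arrays after their brightness was scaled to each other. Scaled brightness carries the offset of the background correction, which makes folds smaller where a signal is dim, as on the liver array. Processed Cy5 signals, not scaled between the arrays, lay further apart than these folds. For Reg1 they were 7720 in stomach and 263 in liver, and for Reg3b 6620 and 182. For Reg3g they were 2160 and 127, and for Dmbt1 59700 and 200. Dmbt1 was 99.5-fold brighter on the stomach array than on the liver array in Cy5 and 20.3-fold brighter in Cy3, so that it was high in both tissues of the stomach pair. Reg1 was 10.5-fold brighter in Cy5 and 2.57-fold brighter in Cy3, and Reg3b 10.3-fold and 2.62-fold. Reg3g was 4.37-fold brighter in Cy5 and 2.26-fold in Cy3, whereas Reg2 was 1.32-fold brighter in Cy5 and higher by 0.14 log2 units in Cy3. For these 5 genes the excess of stomach over liver was larger in Cy5 than in Cy3. That restates their higher log2 ratios on the stomach array and is not a further observation. For Reg2 both ratios lay within their scanner errors, 0.73 in stomach and 0.97 in liver. Arrays and organs cannot be told apart here, since each organ had its own array.

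In the lung pair Reg1, Reg3b and Reg2 were strongly Cy5-high in the authors' deposited table. The lung lists of the authors' deposited table start at 2-fold, and of the 27677 genes 6.84% have a spot in the Cy5-high list and 12.4% in the Cy3-high list. Of the 7 genes, 3 are in the Cy5-high list and 0 in the Cy3-high list. Reg1 heads the Cy5-high lung list of 2288 spots in the authors' deposited table, at 154.9-fold (log2 7.28), with signals of 87800 in Cy5 and 571 in Cy3. In the authors' deposited table Reg3b has rank 7 of that list, at 60.3-fold (log2 5.91), with 60700 in Cy5 and 1010 in Cy3. Reg2 has rank 63 in the authors' deposited table, at 19.1-fold (log2 4.25), with 6120 in Cy5 and 318 in Cy3. The notes of the authors' deposited table call these signals raw, although their quotient gives the listed ratio. All 3 genes stayed listed at a limit of 4-fold, which could not remove them because their listed ratios are far larger. Dmbt1, Reg3a, Reg3g and Reg4 are in neither lung list and have no lung value here.

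For stomach the authors' deposited table has a Cy5-high list of 1660 spots, which holds 5.17% of the 27677 genes and 4 of the 7. Its Cy3-high stomach list holds 4.32% of the genes and 0 of the 7. In the authors' deposited table Reg1 has rank 33 there, Dmbt1 rank 42, Reg3b rank 44 and Reg3g rank 283. Reg2 is absent from that list and Reg3g from the lung list. Reg1 and Reg3b are thus the 2 genes in both, 2 of 4 in stomach and 2 of 3 in lung. The stomach lists start at 1.35-fold and the lung lists at 2-fold, so presence and shares are compared at unlike limits. Reg2 had a scanner ratio of 1.59-fold in stomach and is not listed, so fold was not the only rule for entry. Over all genes, 575 are in both Cy5-high lists of the authors' deposited table, 40.2% of the genes in the stomach list and 30.4% of those in the lung list. The liver lists of the authors' deposited table hold 1.75% of the genes as Cy5-high and 1.36% as Cy3-high, and 0 of the 7 genes in either. Whether the stomach and lung differences themselves differ was not tested.

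The processed signals order the tissues as follows, on arrays that were normalized separately. Reg1 was brightest in the Cy5 channel of lung in the authors' deposited table, followed by Cy5 of stomach, Cy3 of stomach, Cy3 of lung, and Cy5 and Cy3 of liver. Reg3b had the same order down to Cy3 of lung, and its liver signals came last with Cy3 above Cy5. For Reg2 the order began in the same way, with Cy5 of lung in the authors' deposited table ahead of Cy5 and Cy3 of stomach, but both liver signals lay above its Cy3 signal in lung. Within an array, the channels of liver for all 3 genes and the channels of stomach for Reg2 did not differ beyond the scanner error of the ratio. Neighbours from different arrays were not tested against each other, and some were close, such as Reg2 in Cy3 of stomach at 428 ± 22.1 and in Cy5 of liver at 396 ± 12.5.

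**Figure D4:**
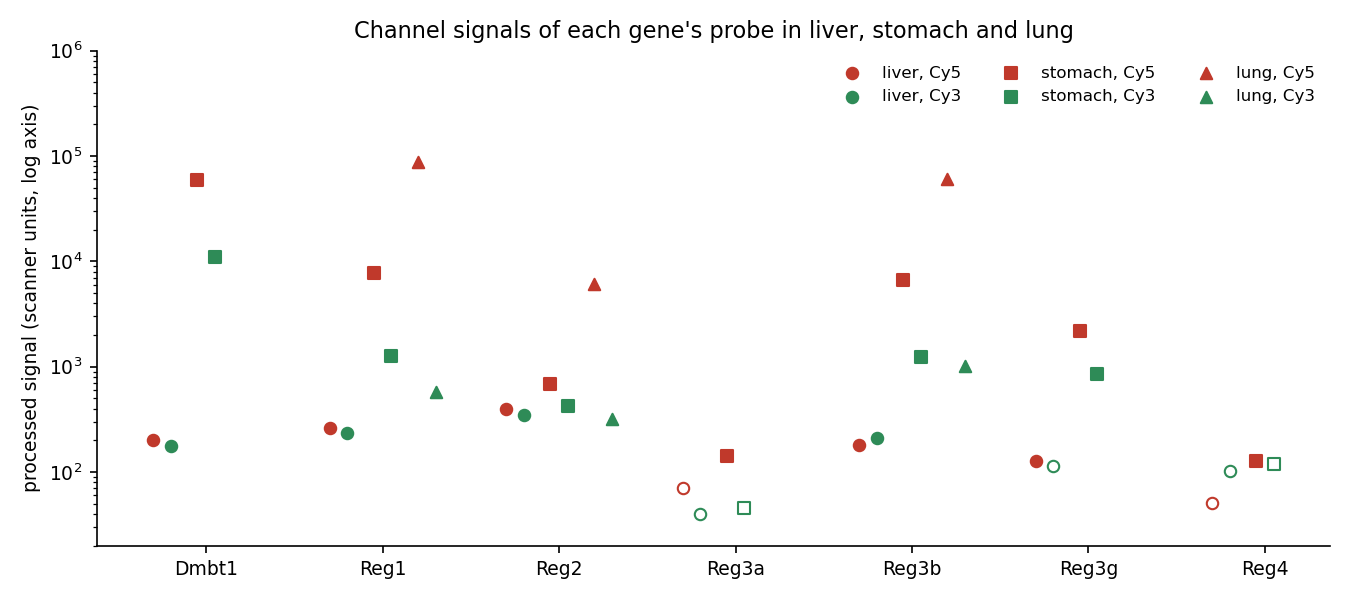
Processed signal (scanner units, log axis) of each gene's probe in Cy5 (red) and Cy3 (green) on the liver array (circles), on the stomach array (squares) and in the authors' lung list (triangles). Open symbols are not well above background, and signals compare within a gene only. Reg1 and Reg3b reach 87800 and 60700 in Cy5 of lung, and Dmbt1, which has no lung entry, reaches 59700 in Cy5 of stomach.

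By the distance between ratios on both arrays, among 24766 genes, the gene most like Dmbt1 was Reg1, at 0.22 log2 units. Next came Samd5 at 0.22, Msln, a surface glycoprotein of mesothelium, at 0.23 and the transcription factor Onecut2 at 0.32. The genes most like Reg1 were Samd5 at 0.01, Onecut2 at 0.11, Msln at 0.12 and Vil1, the villin of intestinal microvilli, at 0.14. In the authors' deposited table Msln (log2 3.42), Onecut2 (4.66) and Vil1 (5.07) are also Cy5-high in lung, beside Reg1 at 7.28, whereas Samd5 is not listed there. The likeness rests on 2 arrays alone, and Dmbt1 and Reg1 were themselves chosen partly on these ratios. The scanner error of Dmbt1 was 1.90 in liver and 0.24 in stomach, and that of Reg1 was 1.44 and 0.27. All distances given here are smaller than the liver errors, so their order is not settled.

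Most neighbours on the chromosome had stomach ratios near 0, beside 1.98 or more for Reg1, Reg3b and Dmbt1. Next to the Reg cluster, Ctnna2 had a stomach ratio of 0.06 (SD 0.10 between 3 probes) and Lrrtm1 0.17 ± 0.46. Beside Dmbt1, Plekha1 was at 0.01 and Htra1 at -0.06, and Reg3a, which lies between Reg3b and Reg1, had a fitted ratio of 0.21 with Cy3 not well above background. Near Reg4, Phgdh was at -0.72.

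Genes of the receptors and signalling around the Reg genes had mostly small ratios in stomach. Of 17 measured, 0 were Cy5-high and 1 was Cy3-high, with a median of -0.01 beside 0.00 over all genes. The Cy3-high gene was Il11ra1, an interleukin 11 receptor chain, at -2.16 (SD 0.27 between 2 probes). Stat3, through which Reg3 genes are induced, was at -0.28, its inhibitor Socs3 at 0.45 and the interleukin 22 receptor chain Il22ra1 at -0.10. Extl3, proposed as a receptor for Reg proteins, was at -0.39. In lung, where Reg1, Reg3b and Reg2 are Cy5-high, 0 of 19 genes of this list are Cy5-high and 5 are Cy3-high. Over all genes the shares are 6.84% and 12.4%. Among the Cy3-high genes are Stat3 at -1.38 and Extl3 at -1.05 in the authors' deposited table. The Stat3 value rests on 1 listed spot, whereas Stat3 had 2 probes on the stomach array. In liver 0 of 17 were past 2-fold.

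Other antimicrobial proteins of epithelium were split in stomach, with 7 of 22 Cy5-high, 3 Cy3-high and a median of 0.15. Lyz1, the lysozyme of Paneth cells, was at 2.52 ± 0.27, above Dmbt1, and Pglyrp1, which binds peptidoglycan, was at 1.55 ± 0.22. Itln1, an intestinal lectin, had a fitted ratio of 1.55 ± 0.89 (2.92-fold), with Cy3 not well above background, so that fold is not a lower limit. Slpi, a protease inhibitor, was at -2.89 ± 0.29 and S100a9, a neutrophil protein, at -1.93 ± 0.25. In lung 4 of 24 are Cy5-high and 4 Cy3-high, beside 6.84% and 12.4% of all genes. Lyz1 is listed at -4.25 in the authors' deposited table, on the other side from Reg1 and Reg3b. In liver Lcn2 was Cy5-high at 1.14 ± 0.18 and Slpi Cy3-high at -1.38 ± 0.20.

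Among genes whose proteins bind Dmbt1, 3 of 10 were Cy5-high in stomach and 1 was Cy3-high, with a median of 0.13. Sftpd, the lung collectin, was at 1.89 ± 0.38, Lgals3 (galectin 3) at 1.18 ± 0.19 and Tff2, a gastric trefoil peptide, at 1.17 ± 0.19, all below Dmbt1. Ltf, which binds iron, was at -1.16 (SD 0.13 between 2 probes). In lung 4 of 11 are Cy5-high and 3 Cy3-high, beside 6.84% and 12.4% of all genes. Tff3 is at 4.98 and Tff2 at 3.95 but Sftpd at -2.78 in the authors' deposited table. None of 11 was past 2-fold in liver.

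In the wider protein families of Dmbt1 and the Reg genes few ratios were as large. Of 17 other genes with scavenger receptor cysteine-rich domains, 1 was Cy5-high in stomach, the serine protease Prss12 at 1.34 ± 0.51, 0 were Cy3-high, and the median was 0.08. Of 26 other C-type lectins 0 were past 2-fold in either direction, from -0.45 to 0.50, with a median of 0.09. In lung 0 of these lectins are Cy5-high and 10 of 28 are Cy3-high in the authors' deposited table, beside 6.84% and 12.4% of all genes. Reg1, Reg2 and Reg3b are Cy5-high there, but they were chosen partly on their ratios.

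**Figure D5:**
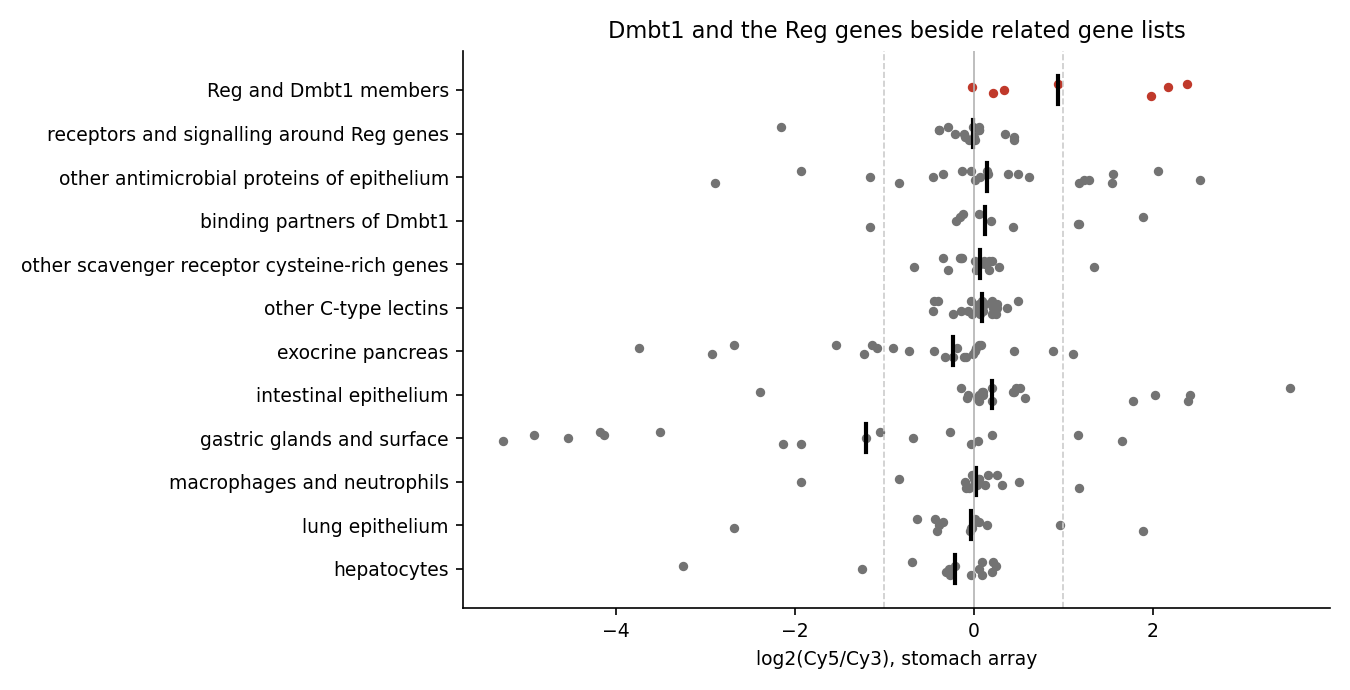
Log2(Cy5/Cy3) on the stomach array of the 7 genes (red, top) and of each measured gene of 11 related lists (grey), 1 point per gene, with black bars at the medians and dashed lines at 2-fold. The bar of the 7 genes is at 0.95, that of the exocrine pancreas list at -0.23 and that of the gastric list at -1.20.

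Markers of cell types that make Reg proteins included genes past 2-fold in the stomach pair on both sides. Of 23 measured genes of intestinal epithelium, 5 were Cy5-high and 1 was Cy3-high, with a median of 0.21. They were Clca1 at 3.54 ± 0.32, Krt20 at 2.41 ± 0.25, Slc9a3 at 2.39 ± 0.34, Vil1 at 2.03 and Lgals4 at 1.79, and the Cy3-high gene was Anpep at -2.38 ± 0.25. Summed over all spots of the 24 intestinal genes on the design, outliers left out, the signal was 971946 in Cy5 and 228041 in Cy3. For the 7 genes, with 1 probe each, it was 77149 in Cy5 and 15051 in Cy3, of which Dmbt1 gave 59700 and 11100. Signals compare within a gene only, so these sums give no relative amount of the 2 sets. Of 23 genes of the exocrine pancreas, 1 was Cy5-high, the elastase Cela1 at 1.11, and 7 were Cy3-high, led by the lipase Pnliprp2 at -3.74 ± 0.42 and by Pla2g1b at -2.93 ± 0.26. The median of this list was -0.23, and other genes of it were nearer 0, among them Cpa1 at -0.18, Cpb1 at -0.01, Ctrb1 at -0.23 and Pnlip at -0.08. The part of these cell types in the ratios of the 7 genes was not tested.

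Other cell types differed in the stomach pair as well. The list of 17 gastric genes had 2 on the Cy5 side and 10 on the Cy3 side past 2-fold, a median of -1.20, and Chia1 lowest at -5.26. Of 19 macrophage and neutrophil genes 1 was on each side, Lyz2 at 1.18 (SD 0.93 between 2 probes) and S100a9 at -1.93. Of 15 lung epithelium genes 1 was Cy5-high, Sftpd, and 1 Cy3-high, Cyp2f2 at -2.68 ± 0.50, and of 15 hepatocyte genes 0 were Cy5-high and 2 Cy3-high, Apoa1 at -3.24 and Arg1 at -1.25. In liver Cyp2f2 was Cy3-high at -1.33 ± 0.19, and no other gene of the cell type lists was past 2-fold. In lung, beside Reg1, Reg3b and Reg2, 9 of 24 intestinal genes are Cy5-high and 1 is Cy3-high. Slc9a3 is at 5.48, Vil1 at 5.07 and Lgals4 at 4.42 in the authors' deposited table. The Lgals4 value rests on 1 listed spot, whereas Lgals4 had 2 probes on the stomach array. Over all genes the shares are 6.84% and 12.4%. Of 19 macrophage and neutrophil genes 5 are Cy5-high in lung, led by Cxcl5 at 6.21 in the authors' deposited table, and 2 are Cy3-high. Of 17 gastric genes 3 are Cy5-high and 3 Cy3-high in lung, and of 15 hepatocyte genes 3 and 1. Of 24 exocrine pancreas genes 2 are Cy5-high and 2 Cy3-high in lung, Cela1 at 2.94 being the highest in the authors' deposited table. Of 16 lung epithelium genes 0 are Cy5-high and 13 are Cy3-high in lung. The part of all these cell types in the lung ratios of Reg1, Reg3b and Reg2 was not tested.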

How the data were processed

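RNA of 3 tissue pairs was measured on 2-colour arrays, 1 sample per group with no replicates. Per the file headers, Agilent Feature Extraction 8.5.1.1 made the scanner values, and the deposited intensity columns hold raw mean and local background signals and processed signals corrected for background and dye. The deposited log10 ratio is Cy5 over Cy3, and the deposited error is a score of the scanner's error model, per the file headers; both were turned to log2. Per the file headers, that model also gave each spot's deposited p-value, which is not reported. The authors' deposited table lists log10 ratios for 3 organs, and its liver and stomach values equal the scanner's. Lung spots were joined to genes by spot number: signals of the 2288 spots of the lung Cy5-high list correlated with liver brightness at the same spots (Pearson r = 0.58, across spots, which are not independent).

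Background was corrected with normexp (offset 50) and ratios were normalized by loess within each array in limma 3.58.1 (R 4.3.3), a procedure tested on simulated data. The offset pulls dim ratios towards 0. Control and outlier spots were left out, and a probe was kept where 1 channel or both exceeded background and no more than 1 was saturated. A gene's value on the liver and stomach arrays is the mean over its probes. Its lung value is the mean over its listed spots alone. Spots of the gene that are not listed do not enter, so a lung value can be larger than a mean over all its probes. Brightness was scaled between arrays with Aquantile. A bound divides the bright channel by the dim channel's signal or its detection limit (the lowest signal well above background), whichever is greater. It is open to dye bias, and where the dim channel's signal is the greater it equals the fitted ratio and carries its error. Later steps used Python 3.11.15, pandas 2.3.3 and Biopython 1.88. Names came from RefSeq for 79.4% of 41174 probes, and others kept the file's name.

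The members and all gene lists were chosen with earlier results of these data known. Named genes are the 7 members, Reg3d, up to 6 genes per list with the largest stomach ratios in size, any past 2-fold in liver, and the 4 genes most like Dmbt1 and Reg1; genes of the lists named for their role, LOC546006, the chromosome neighbours and the lung values were added after their values were seen. A gene was called at a log2 ratio of 1 or more in size, and no test was made. The 7 alternatives of the arrays, and a 4-fold limit for lung, are given in the closing section. The level of the transgene's own gene is not reported here.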

Additional observations from a re-analysis of the deposited data

Results flagged for a closer look

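Among the related lists, 8 genes were at least 2-fold apart in both organs but on opposite sides in stomach and in lung. Of the 7 genes described above, Reg1 and Reg3b were past 2-fold in both organs and on the same side. Reg2 was at 0.34 in stomach, within its scanner error of 0.73, and at 4.25 in lung. Dmbt1, Reg3a, Reg3g and Reg4 had no lung value and could not be compared. The lung values are those of the authors' deposited table, and the difference between organs was not tested. Arg1 had a stomach log2 ratio of -1.25 and 4.02 in lung in the authors' deposited table. Psca was at -1.20 in stomach and 1.16 in lung in the authors' deposited table, and Ltf at -1.16 and 1.64. Lyz1 was at 2.52 in stomach and -4.25 in lung in the authors' deposited table. Lyz2 was at 1.18 and -3.10, the stomach value with an SD of 0.93 between 2 probes and the lung value from 1 listed spot. Itln1, whose Cy3 signal in stomach was not well above background, had a fitted ratio of 1.55 there and -1.94 in lung in the authors' deposited table. Prss12 was at 1.34 in stomach and -1.76 in lung in the authors' deposited table, and Sftpd at 1.89 and -2.78.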

How the results depend on the processing

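Of the 7 genes, 3 were Cy5-high in stomach as reported and 5 with the scanner's ratio. With an offset of 10 or after median centring there were 4. Over all 25322 measured genes the Cy5-high count rose as well. It was 221 as reported, 1093 with the scanner's ratio, 441 with an offset of 10 and 1017 after median centring. Of the 7 genes, 0 were Cy3-high there under any of the 7 alternatives. In liver 0 of the genes that each setting kept were past 2-fold. The filter left out Reg3a and Reg4 in liver, where the scanner's ratio for Reg4 was -1.01 ± 4.82 with neither channel above background. Stomach ratios over these settings ran from 2.38 to 3.23 for Dmbt1, 2.17 to 2.64 for Reg1, 1.98 to 2.44 for Reg3b, 0.95 to 1.33 for Reg3g and 0.34 to 0.67 for Reg2. Reg3a ranged from -0.21 to 1.65 and Reg4 from -0.42 to 0.10, and neither gave a value where both channels had to be well above background. No called value reversed. Over all related lists, Cy5-high genes in stomach numbered 18 as reported and 32 with the scanner's ratio; in liver they numbered 1 as reported, 8 with the scanner's ratio, 3 with an offset of 10 and 4 after median centring, and Cy3-high genes 2 as reported and 1 after median centring or without the filter on dim probes. The percentages that follow are the share of Cy5-high genes among genes past 2-fold, and not among all genes. Over the whole stomach array, 221 genes were Cy5-high and 358 Cy3-high (38.2%) as reported, and 1093 and 1049 (51.0%) with the scanner's ratio. There were 441 and 587 with an offset of 10, and 1017 and 235 (81.2%) after median centring. In liver they were 39 and 18 (68.4%) as reported, 541 and 420 (56.3%) with the scanner's ratio, 113 and 104 (52.1%) with an offset of 10, and 110 and 7 (94.0%) after median centring. The cause of these shifts was not tested. Low signal over background limits the ratios of Reg3a and Reg4 and those of all 7 genes in liver. No paired analysis was possible because each group had 1 sample.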
